A study of Rattus norvegicus with 47 samples.

Results

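The genes of 3 subunits of the platelet complex that binds von Willebrand factor (Gp1bb, Gp5 and Gp9), of that ligand itself (Vwf) and of a clotting factor (F13a1) were followed across the whole-blood samples of a rat stress study. Their probes were picked by the gene symbol in the platform annotation and gave 5 genes of the 13337 genes that the array names. The genes themselves were named with earlier results of these data known. Each gene had 1 probe, and all 5 probes passed the detection filter described here. The rats were adult Sprague Dawley animals of both sexes. Exposed rats had met the scent of a predator, and the submitters classed them by behaviour afterwards as minimal or extreme responders. Control rats went through the same behavioural testing with no exposure. No genetic modification or drug is named in the labels. Blood of each rat was collected in PAXgene tubes, which stabilise RNA at collection, its globin messenger RNA was depleted, and 1 Illumina rat bead array was hybridised per rat. The design named 7 female controls, and the remaining 5 groups had 8 rats each.

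Platelets are cell fragments without a nucleus that are shed by megakaryocytes and carry megakaryocyte messenger RNA. On their surface the glycoprotein Ib-IX-V complex, whose subunits are the products of Gp1ba, Gp1bb, Gp9 and Gp5, catches von Willebrand factor at a damaged vessel wall and slows the platelet. Vwf encodes that ligand, which is made by megakaryocytes and by endothelium. F13a1 encodes the catalytic A subunit of coagulation factor XIII, which crosslinks fibrin and is carried by platelets and by monocytes. Gp1ba, which encodes the subunit that binds von Willebrand factor, had no probe with its symbol.

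The start regions of the genes are shown because megakaryocyte genes are known targets of GATA, ETS, RUNX and NF-E2 factors, whose short core motifs can be read directly. RefSeq promoter sequences were found for 4 of the 5 genes, on the GRCr8 build, each with 250 bases before and 50 bases after the annotated start. Capitals mark GATAA or GATAG for GATA factors, AGGAA for ETS factors, TGTGGT for RUNX factors and TGAGTCA for NF-E2 and AP-1 factors, searched on both strands, so that a match on the other strand reads as its reverse complement. Neighbouring matches can touch or share a base, as in the last ETS pair of Gp9.
Gp1bb, chr11:95882311-95882610, plus strand: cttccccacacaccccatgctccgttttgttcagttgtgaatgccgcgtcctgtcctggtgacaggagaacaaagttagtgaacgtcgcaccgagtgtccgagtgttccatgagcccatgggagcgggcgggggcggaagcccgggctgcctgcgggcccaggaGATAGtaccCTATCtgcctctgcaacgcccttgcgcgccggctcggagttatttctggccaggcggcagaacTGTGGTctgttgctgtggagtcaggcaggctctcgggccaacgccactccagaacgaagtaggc
Gp5, chr11:83948257-83948556, plus strand: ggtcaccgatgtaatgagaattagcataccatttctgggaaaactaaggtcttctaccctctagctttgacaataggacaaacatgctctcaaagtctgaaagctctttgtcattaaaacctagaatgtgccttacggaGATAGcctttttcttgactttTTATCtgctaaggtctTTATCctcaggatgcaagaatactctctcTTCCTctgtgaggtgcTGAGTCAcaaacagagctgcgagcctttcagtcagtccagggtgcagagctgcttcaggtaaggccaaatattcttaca
Gp9, chr4:121792592-121792891, plus strand: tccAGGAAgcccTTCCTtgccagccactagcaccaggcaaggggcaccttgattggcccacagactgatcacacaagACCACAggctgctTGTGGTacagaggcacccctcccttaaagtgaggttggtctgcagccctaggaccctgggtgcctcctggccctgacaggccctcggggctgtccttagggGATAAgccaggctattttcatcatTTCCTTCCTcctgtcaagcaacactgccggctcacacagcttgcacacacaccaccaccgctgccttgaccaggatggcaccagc
F13a1, chr17:28020947-28021246, plus strand: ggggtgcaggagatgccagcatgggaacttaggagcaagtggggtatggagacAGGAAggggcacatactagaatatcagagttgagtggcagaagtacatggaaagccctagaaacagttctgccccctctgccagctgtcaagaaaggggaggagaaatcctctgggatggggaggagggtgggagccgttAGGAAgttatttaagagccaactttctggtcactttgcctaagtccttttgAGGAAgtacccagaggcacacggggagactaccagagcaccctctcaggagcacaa

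The 3 receptor subunit genes each held a GATA match, with 2 in Gp1bb, 3 in Gp5 and 1 in Gp9, whereas these letters did not occur in the window of F13a1. Of 33469 rat promoters of the same length, 42.7% held a GATA match. An ETS match occurred in Gp5, Gp9 and F13a1 and in 67.3% of all promoters. A RUNX match occurred in Gp1bb and Gp9 and in 17.3% of all promoters. The TGAGTCA motif occurred in Gp5 and in 4.63% of all promoters. These matches are descriptions of the letters.

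The array of female control replicate 2 gave no usable signal, with a highest raw intensity of 83.24 and 1115 probes detected, and it was left out. None of the 5 genes was detected on it. That left 46 arrays, with 6 female controls and 8 rats in every other group. Between 5921 and 8770 of 22523 probes were detected per array, and the 95th percentile of raw intensity, a measure of array brightness, ran from 204.9 to 913.6. Precision is limited by how many arrays each group has. Defining blood markers were present: Pf4 of platelets, Cd3e of T cells, Cd79b of B cells and Alas2 of erythroid cells were detected on 46 of 46 arrays, and Cd14 of monocytes on 44. Among endothelial markers, Cdh5 was detected on 0 arrays, and Pecam1 and Kdr had no probe with their symbol. In whole blood, fewer cells of a type and less RNA per cell cannot be told apart. The rat numbers in the labels ran from 3 to 10 in female controls, 11 to 27 in female minimal responders and 35 to 45 in female extreme responders, so group and animal number cannot be told apart in females.

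Of the 6 female control arrays 4, those of replicates 1, 3, 4 and 5, had low levels of all 5 genes, and the comparisons of the 5 genes that use female controls are therefore given with and without them. Levels are background-corrected, quantile-normalized log2 intensities, which can be compared between arrays for 1 gene but not between genes. The 95th percentile of raw intensity on those 4 arrays was 254.9, 372.6, 338.1 and 204.9, and on replicates 6 and 7 it was 319.8 and 502.3, so brightness did not separate them.

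Gp1bb encodes the beta chain that is joined to the ligand-binding chain of the complex. Its log2 levels in female controls were 11.57, 10.26, 11.64 and 12.56 in replicates 1, 3, 4 and 5, and 13.96 and 13.98 in replicates 6 and 7. The 42 arrays outside those 4 ran from 13.48 to 14.61. Replicates 6 and 7 thus lay inside the range of the other groups, and the other 4 controls lay below every other array.

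Gp5 encodes the subunit that thrombin cleaves on the platelet surface. Its log2 levels in female controls were 4.51, 4.57, 4.64 and 4.78 in replicates 1, 3, 4 and 5, and 7.47 and 7.26 in replicates 6 and 7. Gp5 was detected on 2 of 6 female control arrays and on every array of the other groups, so its level in the 4 low arrays was not well above background, a limit on each of its differences from female controls. The lowest of the 42 remaining arrays was at 5.90.

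Gp9 encodes the small subunit that is required for the complex to reach the surface. Its log2 levels in female controls were 8.39, 7.05, 7.71 and 9.64 in replicates 1, 3, 4 and 5, and 11.02 and 10.89 in replicates 6 and 7. The lowest of the other 42 arrays was at 9.72, only 0.08 above the highest of the 4. For Gp9 the 4 arrays were therefore the lowest of all 46, by a small margin.

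Vwf levels in female controls were 7.29, 6.78, 7.38 and 8.83 on the log2 scale in replicates 1, 3, 4 and 5, and 10.45 and 10.04 in replicates 6 and 7. One other array, a male minimal responder at 8.82, lay below replicate 5. F13a1 levels in female controls were 5.96, 5.20, 5.74 and 7.30 in replicates 1, 3, 4 and 5, and 8.61 and 7.95 in replicates 6 and 7. Replicate 5 was not separate for F13a1, because 9 other arrays lay at or below it. Complete separation of these 4 arrays below the other 42 was found for 3 of the 5 genes and for 1.23% of the 9416 tested probes. The 4 arrays were set apart with earlier results of these data known, so these shares describe them and test nothing.

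**Figure D1:**
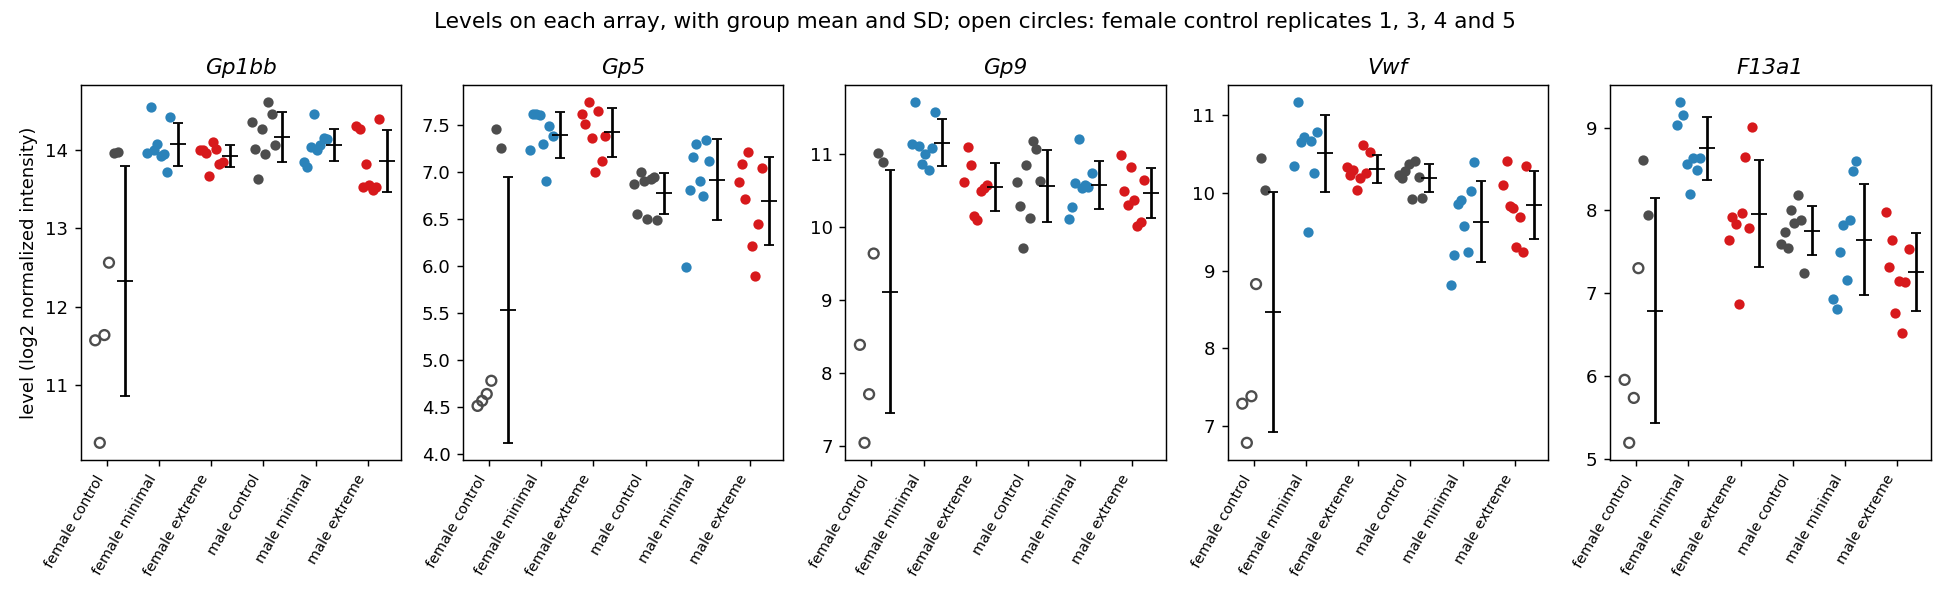
Log2 normalized intensity (vertical axis) of each gene on each of the 46 arrays by group (horizontal axis), with the group mean and SD beside the points. Open circles mark female control replicates 1, 3, 4 and 5, which lie lowest for Gp1bb, Gp5 and Gp9, while replicates 6 and 7 lie at the level of the exposed females.

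The 5 genes were detected in every exposed female. In minimal responders Gp1bb ran from 13.71 to 14.54 on the log2 scale with a median of 13.97, and in extreme responders from 13.66 to 14.09 with a median of 13.97. Gp5 ran from 6.90 to 7.63 (median 7.44) in minimal and from 7.00 to 7.75 (median 7.45) in extreme responders. Gp9 ran from 10.78 to 11.71 (median 11.09) in minimal and from 10.10 to 11.09 (median 10.56) in extreme responders. The 2 classes overlapped for these 3 subunits. Vwf ran from 9.50 to 11.17 (median 10.66) in minimal and from 10.04 to 10.62 (median 10.28) in extreme responders. F13a1 ran from 8.19 to 9.31 (median 8.63) in minimal and from 6.87 to 9.01 (median 7.88) in extreme responders. All 16 exposed females lay above the mean of the female controls for every one of the 5 genes, yet 6 to 8 of the 16 lay above the highest control, depending on the gene.

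Exposed and control females were compared first, where exposed is the average of the minimal and extreme responder groups. Only exposed rats of these classes were arrayed, so the comparison holds for them. With 46 arrays, limma called 5 of 5 genes higher in exposed than in control females at an adjusted p under 0.05, where 6.36% of tested probes were called and 4.27% were called higher. Vwf differed by 1.95 ± 0.30 (SE) on the log2 scale, from a mean of 8.46 (n = 6) to 10.41 (n = 16), with a limma adjusted p of 9.09e-06. Gp5 differed by 1.88 ± 0.27 with a limma adjusted p of 3.98e-06. The 2 other subunits moved by like amounts, at 1.74 ± 0.31 for Gp9 (adjusted p = 7.73e-05) and 1.67 ± 0.26 for Gp1bb (adjusted p = 1.54e-05, both limma). F13a1 had the smallest estimate of the 5, at 1.56 ± 0.31 with a limma adjusted p of 0.000341. It was detected only weakly on control replicates 1, 3 and 4, with detection p-values of 0.00485, 0.0303 and 0.00848, which limits this estimate.

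Without the 4 control arrays that stood apart, limma called 0 of 5 genes in this comparison, and 0 of 5 reached an unadjusted p under 0.05. The difference of Vwf became 0.17 ± 0.28 (95% interval -0.40 to 0.73), that of Gp5 0.05 ± 0.25 (-0.45 to 0.56) and that of Gp1bb 0.03 ± 0.21 (-0.39 to 0.44). Gp9 was at -0.10 ± 0.26 (-0.63 to 0.44), with its sign turned, and F13a1 at 0.08 ± 0.36 (-0.66 to 0.81). The adjusted p of each of the 5 was 0.994 by limma. Over all probes, 1 of 9246 was called, or 0.0108%. The calls in exposed females thus depended on these 4 control arrays, and the remaining 2 controls allow differences within the intervals given.

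Each response class was also compared with the controls, which both comparisons share. In female minimal responders 5 of 5 genes were called higher with 46 arrays, where 5.19% of tested probes were called and 3.96% were called higher, with differences from 1.74 ± 0.30 for Gp1bb to 2.05 ± 0.33 for Vwf. In female extreme responders 5 of 5 were called higher, where 5.36% of tested probes were called and 3.28% were called higher, with differences from 1.17 ± 0.34 for F13a1 to 1.89 ± 0.30 for Gp5. The limma adjusted p of F13a1 in extreme responders was 0.032, the closest to the threshold, and it missed the threshold under 7 other settings of the processing. That F13a1 call was lost in 5 of 14 single omissions, those of control replicates 1, 3 and 4 and of extreme responder replicates 6 and 8, with the difference between 0.85 and 1.54. The Gp9 call in extreme responders, at 1.44 ± 0.35, was lost when control replicate 3 was left out (1.02, limma adjusted p = 0.0548). Without the 4 arrays, limma called 0 of 5 genes in either class, where 0% and 0.0757% of probes were called.

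**Figure D2:**
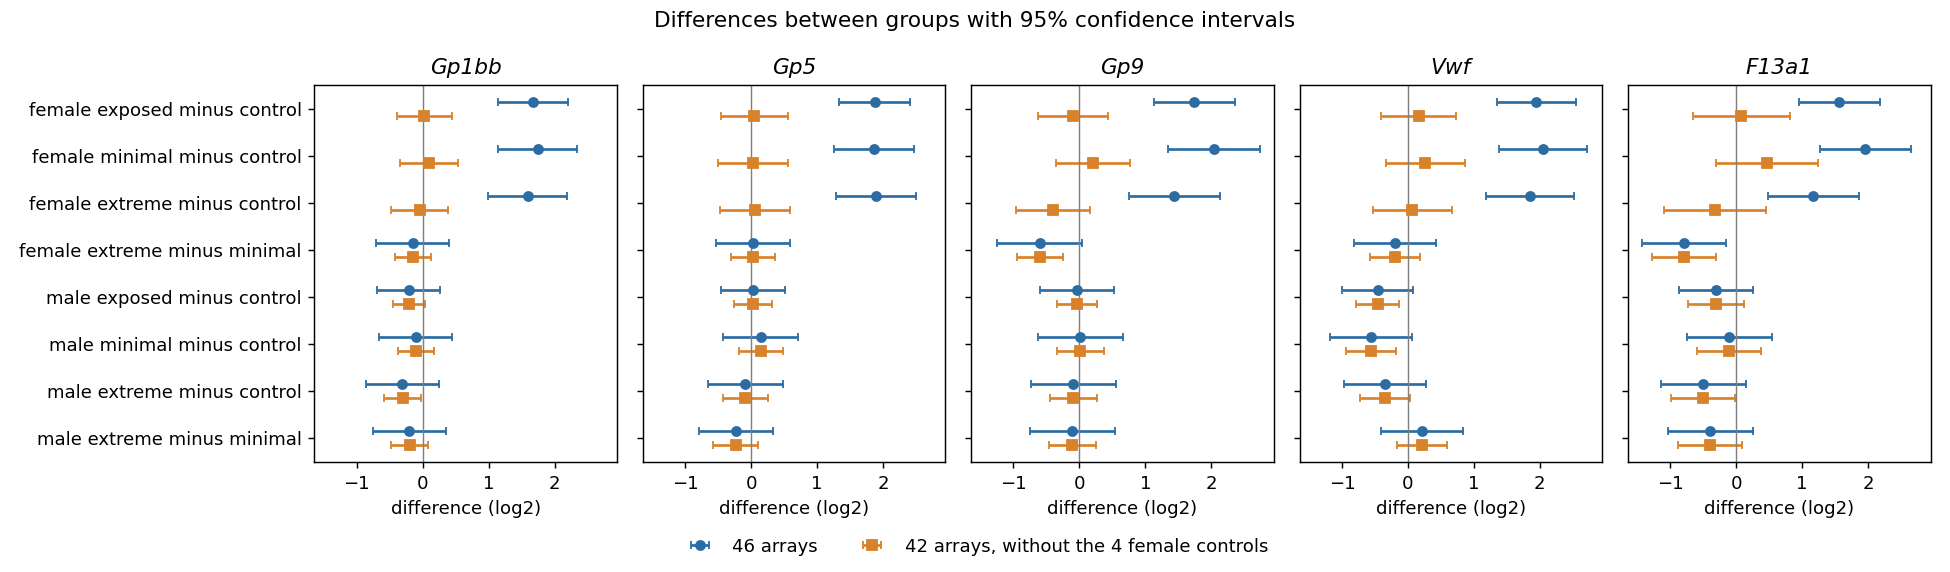
Differences between groups on the log2 scale (horizontal axis) with 95% confidence intervals for 8 comparisons (vertical axis), from 46 arrays (circles) and from 42 arrays (squares). The top 3 comparisons fall from between 1.17 and 2.05 to between -0.40 and 0.47 once the 4 female control arrays are left out.

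Extreme and minimal responders were compared next, to ask how the genes related to individual behaviour after exposure, a comparison that does not use the controls. In females limma called 0 of 5 genes, where 0.34% of tested probes were called, and 1 of 5, F13a1, reached an unadjusted p under 0.05. F13a1 was lower in extreme than in minimal responders by estimate, at -0.79 ± 0.32 (limma adjusted p = 0.29), and 1 of 8 extreme responders lay above the minimal mean. Gp9 was at -0.60 ± 0.32 (limma adjusted p = 0.443), and 0 of 8 extreme responders lay above the minimal mean. Gp1bb, Vwf and Gp5 were at -0.15 ± 0.27, -0.20 ± 0.31 and 0.03 ± 0.28. Leaving out the 4 control arrays lowered the shared estimate of the spread, from a residual SD of 0.64 to 0.35 for Gp9 and from 0.64 to 0.48 for F13a1. The limma adjusted p then became 0.0853 for Gp9 (95% interval -0.95 to -0.25) and 0.101 for F13a1 (-1.28 to -0.30), so that neither passed, where 0.811% of probes were called.

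In males the levels of the 5 genes overlapped in all groups. Male control levels ran from 13.62 to 14.61 (median 14.16) for Gp1bb, from 6.49 to 7.01 (median 6.89) for Gp5 and from 9.72 to 11.18 (median 10.63) for Gp9. Male minimal responders ran from 13.78 to 14.45 (median 14.05), from 6.00 to 7.34 (median 7.02) and from 10.12 to 11.21 (median 10.56) for the same genes. Male extreme responders ran from 13.48 to 14.39 (median 13.68), from 5.90 to 7.22 (median 6.81) and from 10.02 to 10.99 (median 10.44). No male group was set apart for a receptor subunit. F13a1 ran from 7.25 to 8.19 (median 7.79) in controls, from 6.82 to 8.60 (median 7.66) in minimal and from 6.52 to 7.99 (median 7.23) in extreme responders.

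Vwf had the largest estimated difference of the 5 genes in all exposed and in minimal males against controls, and F13a1 in extreme males against controls. Vwf levels in male controls ran from 9.92 to 10.41 with a median of 10.21. In minimal responders they ran from 8.82 to 10.40 with a median of 9.72, and in extreme responders from 9.24 to 10.41 with a median of 9.81. The controls lay closer together than the exposed males, and 3 of 16 exposed males lay above the control mean.

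With 46 arrays limma called 0 of 5 genes in exposed against control males, where 11.2% of tested probes were called, and 0 of 5 reached an unadjusted p under 0.05. Vwf was at -0.46 ± 0.27 (adjusted p = 0.29), F13a1 at -0.30 ± 0.28 (0.548), Gp1bb at -0.21 ± 0.24 (0.648), Gp9 at -0.04 ± 0.28 (0.955) and Gp5 at 0.03 ± 0.24 (0.96), with limma adjusted p-values in parentheses. In male minimal responders 0 of 5 were called, where 14.8% of probes were called. In male extreme responders 0 of 5 were called, where 0% of probes were called against controls and 0.138% against minimal responders. In each of these 3 comparisons 0 of 5 genes reached an unadjusted p under 0.05 with 46 arrays. Without the 4 female control arrays 2 of 5 reached it in extreme males against controls, Gp1bb at -0.30 ± 0.14 and F13a1 at -0.50 ± 0.24. Neither passed (limma adjusted p = 0.25 and 0.29), where 0.238% of probes were called.

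The Vwf value in male minimal responders depended on which arrays shared the estimate of the spread. Its difference from male controls was -0.56 ± 0.31 (limma adjusted p = 0.233) with 46 arrays and -0.56 ± 0.19 (limma adjusted p = 0.0325) without the 4 female control arrays, where 16.6% of probes were called. With males fitted by themselves it was -0.54 ± 0.19 (limma adjusted p = 0.0428), where 1436 of 8246 probes were called. The size was nearly the same each time, and of these 3 fits it passed the test in the 2 that held none of the 4 arrays. In all exposed males without the 4 arrays Vwf was at -0.46 ± 0.16 (limma adjusted p = 0.0559), which did not pass, where 12.6% of probes were called. The residual SD of Vwf was 0.62 with 46 arrays and 0.37 with 42.

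The ligand was set against its receptor within each array, as the Vwf level minus the mean level of Gp1bb, Gp5 and Gp9, to ask whether they changed unequally. In males this quantity averaged -0.31 ± 0.25 (SD, n = 8) in controls and -0.69 ± 0.35 (SD, n = 16) in exposed rats. The difference of -0.38 had an exact two-sided permutation p of 0.0126 and, adjusted over the 4 tests of this kind, 0.0504, which missed the threshold. In single omissions the male difference ran from -0.43 to -0.32, with unadjusted exact permutation p-values from 0.00497 to 0.0369. In females the difference was 0.19 (exact permutation p = 0.201), from 0.27 to 0.40 under 3 other settings with unadjusted exact permutation p-values from 0.0251 to 0.0487, and without the 4 control arrays 0.17 (exact permutation p = 0.392, with 0.0065 the smallest possible). Gp5, part of the receptor mean, was not detected on those 4 control arrays, which limits the female values that use them. Endothelial markers, the other source of Vwf, had 5 tested genes of 14. In exposed against control males 0 of 5 were called, where 11.2% of tested probes were called. Their summed normalized intensity ran from 88.83 to 141.4 in male controls, from 87.72 to 146.7 in minimal and from 94.93 to 134.1 in extreme responders. The sum of 5 platelet markers ran from 15840 to 30630 in male controls. The endothelial probes were thus dim, and the count of 0 cannot show that this source was unchanged.

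F13a1 was set against the receptor subunits in the same way, because monocytes also carry it. In females the difference between exposed and control rats was -0.20 (exact permutation p = 0.431), and 0.08 without the 4 arrays (exact permutation p = 0.843). Without background correction the female difference was -0.38 (exact permutation p = 0.0662). Gp5, part of the receptor mean, was not detected on the 4 low control arrays, and F13a1 was detected only weakly on replicates 1, 3 and 4. Both limit the female values that use these arrays. In males it was -0.23 (exact permutation p = 0.212). None of these showed F13a1 changing unequally with the receptor subunits beyond the spread between animals. Of 12 monocyte genes 6 were tested, and 1 was called in exposed females: Cd14, a receptor for bacterial lipopolysaccharide, fell by 0.68 ± 0.21 (limma adjusted p = 0.0401). None of the 6 was called in that comparison without the 4 arrays, where Cd14 was at -0.36 (limma adjusted p = 0.994). By class, 1 of the 6 was called lower in minimal females against controls, where 5.19% of probes were called. In extreme females 0 of the 6 were called against controls, where 5.36% were called. Set against minimal females, 1 of the 6 was called higher in extreme females, with a largest estimate of 1.11, where 0.34% were called. That count was also 1 without the 4 arrays, where 0.811% were called. Ctss, a lysosomal protease, was at -0.27 ± 0.14 (adjusted p = 0.271) in exposed females and at 0.25 (adjusted p = 0.192) in exposed males, both limma against controls. The summed monocyte intensity ran from 589.1 to 1152 in female controls, from 616 to 876.2 in minimal and from 666.6 to 958.7 in extreme female responders, and from 909.6 to 1658 over the male control and minimal groups and from 1158 to 1627 in male extreme responders.

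Whether the effect of exposure differed between females and males was tested directly as the difference of the 2 exposure effects. All females carry F-numbered labels and all males R-numbered labels, so sex and numbering series cannot be told apart. With 46 arrays limma called 5 of 5 genes, where 11.4% of tested probes were called and 5.79% were called higher. The difference was largest for Vwf by estimate, at 2.41 ± 0.40 (limma adjusted p = 0.000124), and lay between 1.78 ± 0.41 for Gp9 and 1.88 ± 0.35 for Gp1bb in the other 4. Without the 4 female control arrays limma called 0 of 5, where 0% of probes were called, and 0 of 5 reached an unadjusted p under 0.05. Vwf was then at 0.62 (95% interval -0.03 to 1.28), and the others lay between -0.06 for Gp9 and 0.38 for F13a1. The difference between the sexes in extreme against minimal responders was called for 0 of 5 genes, where 0.0319% of probes were called with 46 arrays and 0.0433% with 42, and 0 of 5 reached an unadjusted p under 0.05 in either fit.

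Between control animals, 5 of 5 genes were lower in females than in males with 46 arrays, where 31.9% of tested probes were called and 17.5% were called lower. Here too, sex cannot be told apart from the F and R numbering series. Gp1bb was at -1.84 ± 0.30, Vwf at -1.73 ± 0.33, Gp9 at -1.45 ± 0.35, Gp5 at -1.24 ± 0.30 and F13a1 at -0.96 ± 0.34, where the limma adjusted p of F13a1 was 0.0279. The F13a1 call was lost when control replicate 1, 3 or 4 of the females was left out and under 5 other settings, with differences from -1.33 to -0.65 over all single omissions. Without the 4 arrays limma called 0 of 5, where 2.17% of probes were called, and only Gp1bb kept a negative sign, at -0.19 ± 0.22. Gp5 was then higher in females by estimate, at 0.59 ± 0.26 (limma adjusted p = 0.213), with an unadjusted p of 0.0307.

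Ordered by mean level, female controls were the lowest of the 6 groups for all 5 genes, and this place rests on the 4 arrays. For Gp1bb the other 5 group means, from 13.85 in male extreme responders to 14.16 in male controls, followed each other within 1 pooled SD. For Gp5 both exposed female groups, at 7.43 ± 0.26 (SD, n = 8) and 7.40 ± 0.25, came before the male groups, whose highest mean was 6.92 ± 0.43, a step larger than the pooled SD although the ranges overlapped. For Gp9 and F13a1 the female minimal responders came first, at 11.16 ± 0.33 and 8.75 ± 0.38, each more than 1 pooled SD above the next group. For Vwf the 2 exposed female groups and the male controls came first, at 10.51 ± 0.49, 10.31 ± 0.18 and 10.19 ± 0.18, and the step down to the male extreme responders at 9.84 ± 0.43 was just over 1 pooled SD.

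The other genes of platelet adhesion, the wider platelet list and the coagulation list show what moved beside the 5 genes in exposed females. Of the 31 other platelet and megakaryocyte genes 16 were tested, and with 46 arrays 12 rose, 0 fell and 4 did not pass, with a median difference of 1.47 against -0.01 over all tested probes. The largest estimates among those named were those of Slc6a4, the serotonin transporter, at 2.33 ± 0.34, and Clu, which encodes clusterin, at 2.19 ± 0.33. Alox12, the platelet lipoxygenase, followed at 2.17 ± 0.31, and Ppbp, a chemokine precursor of platelet granules, at 1.86 ± 0.32. Without the 4 arrays 0 of the 16 were called and their median was 0.01. In exposed males 2 of the 16 rose and 0 fell, with a median of 0.12, where 11.2% of all tested probes were called.

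Of the 19 other genes of platelet adhesion and its signalling 9 were tested, and 4 rose and 0 fell in exposed females, with a median of 0.41. They were Fermt3, an integrin activator, at 0.72 ± 0.16, Itgb1, an integrin beta chain, at 0.64 ± 0.16, Fcer1g, the signalling chain beside glycoprotein VI, at 0.56 ± 0.14, and Vasp, an actin regulator, at 0.41 ± 0.12. These genes are also expressed by leukocytes, and without the 4 arrays 0 of the 9 were called. Of the 34 coagulation and fibrinolysis genes 11 were tested, and 2 rose and 0 fell, with a median of -0.03. F5, which encodes coagulation factor V and is carried in platelet granules, rose by 2.05 ± 0.32 (limma adjusted p = 1.18e-05). Vkorc1, the vitamin K reductase of clotting factor synthesis, rose by 0.55 ± 0.16 in females and fell by 0.50 in males (limma adjusted p = 0.0158). Without the 4 arrays 0 of the 11 were called in females.

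Megakaryocyte transcription factors had 9 tested genes of 12 listed. With 46 arrays limma called 0 of 9 in exposed females, where 6.36% of tested probes were called, with 1 of 9 at an unadjusted p under 0.05 and a median difference of 0.02. None of the 9 was called in exposed females without the 4 arrays. Runx1, whose factor binds the RUNX motif capitalised in Gp1bb and Gp9, was at 0.30 ± 0.15 (limma adjusted p = 0.248), and Gfi1b was at 0.26 ± 0.15 (limma adjusted p = 0.343). Several of these factors are also expressed by erythroid cells and leukocytes. In exposed males 1 of the 9 was called higher and 0 lower, where 11.2% of tested probes were called. In minimal males 2 were called higher and 0 lower, where 14.8% were called. In the endothelial list 1 of 5 tested genes rose in exposed females. It was Esam, an adhesion molecule that platelets also carry, at 0.78 ± 0.20 (limma adjusted p = 0.00942). Sele, endothelial selectin, was at -0.18 ± 0.14 (limma adjusted p = 0.534). None of the 5 was called without the 4 arrays, where Esam was at -0.23 (limma adjusted p = 0.994).

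On the 4 control arrays other genes moved beside the 5. The score of 5 other platelet markers, their mean log2 level centred on all arrays, was -1.57, -2.42, -2.13 and -1.10 in replicates 1, 3, 4 and 5, and 0.42 and 0.10 in replicates 6 and 7. Summed over the same markers, normalized intensity ran from 4606 to 26510 in female controls, from 21980 to 43130 in minimal and from 19920 to 26190 in extreme female responders. The score of 8 immediate early genes, which are induced within minutes of cell activation, was 1.44, 1.38, 1.29 and 1.06 in replicates 1, 3, 4 and 5, and 0.03 and -0.02 in replicates 6 and 7. On the other arrays it ran no higher than 0.32. Of the 8 immediate early genes 4 passed in exposed females, all lower, among them Fos at -2.59 ± 0.39, Egr1 at -2.32 ± 0.36 and Junb at -2.14 ± 0.25, while Egr2, Atf3 and Nr4a1, named after their values were seen, were at -0.04, 0.04 and 0.01. None of the 8 was called without the 4 arrays. The same 4 arrays thus had a low platelet score and a high immediate early score, whose part in the result was not tested. Because the 4 were set apart with earlier results known, both scores only describe them. Skeletal muscle genes were low in all 6 female controls, with scores from -1.35 to -1.07, so they did not separate the 4 from the other 2.

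**Figure D3:**
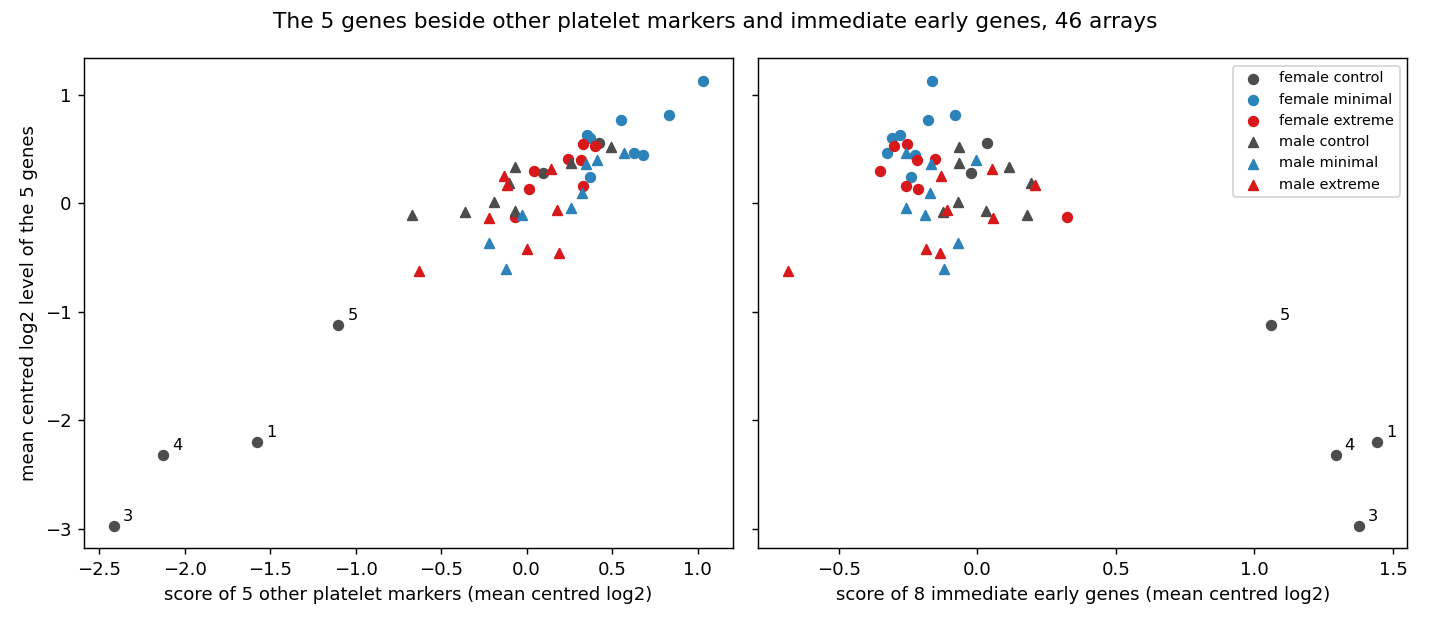
Mean centred log2 level of the 5 genes on each of the 46 arrays (vertical axis) against the score of 5 other platelet markers (left) and of 8 immediate early genes (right), both as mean centred log2 levels, with circles for females and triangles for males. The numbers mark female control replicates 1, 3, 4 and 5, which have platelet scores of -1.10 or less and immediate early scores of 1.06 or more.

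With the platelet score as a covariate in the fit of 46 arrays, limma called 0 of 5 genes in exposed females, where 0.0212% of probes were called, with differences from -0.24 for Gp9 to 0.42 for Gp5. In exposed males it called 2 of 5, both lower at a given platelet score, where 13.2% of probes were called: Vwf at -0.62 ± 0.16 (limma adjusted p = 0.00818) and Gp1bb at -0.36 ± 0.12 (limma adjusted p = 0.044). In male minimal responders it also called 2 of 5, where 16.3% of probes were called. Vwf was at -0.87 ± 0.19 (limma adjusted p = 0.00116) and Gp1bb at -0.40 ± 0.15 (limma adjusted p = 0.0495). In male extreme responders it called 0 of 5, where 0.414% of probes were called, with Vwf at -0.37 ± 0.185 (limma adjusted p = 0.318) and F13a1 at -0.52 ± 0.20 (limma adjusted p = 0.166). The platelet scores of the male groups overlapped, with medians of -0.09 in controls, 0.29 in minimal and -0.06 in extreme responders. At a given platelet score Vwf was thus called lower in all exposed and in minimal males, but not in extreme males. Its own difference did not pass in the fit of 46 arrays without the covariate. Its within-array test against the receptor in males also missed the threshold (exact permutation, adjusted p = 0.0504). The slope of the covariate was shared by all 46 arrays. Platelet scores were -1.10 or less on the 4 female control arrays and no lower than -0.67 on male arrays, and how far the 4 set that slope was not tested.

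Finally, the 5 genes were compared with one another among animals of the same group, as correlations of log2 levels centred on the group mean. The 4 female control arrays form a cluster of their own, so correlations are given without them, and all arrays share their normalization. Over 42 arrays Pearson's r of the 10 gene pairs ran from 0.408 to 0.767 (median 0.522) and Spearman's rank correlation from 0.356 to 0.754. All 10 pairs passed a permutation test with 100000 permutations within groups, the largest adjusted p being 0.0173. For each pair r was also taken without the 2 arrays farthest from the median level of its first gene, before centring, and ran from 0.269 to 0.724. The first gene follows the order Gp1bb, Gp5, Gp9, Vwf, F13a1. The closest pair was Gp1bb with Gp9 (r = 0.767, permutation p = 1e-05, the smallest that these permutations give, Spearman's rank correlation 0.754). Vwf with F13a1 (r = 0.637, permutation p = 3e-05) and Vwf with Gp5 (r = 0.624, permutation p = 0.00018) came next.

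Within each sex the picture differed in how many pairs passed, and the difference between the sexes was not tested. In 24 males r ran from 0.461 to 0.84 (median 0.569), the rank correlation from 0.435 to 0.844, and 10 of 10 pairs passed, with r from 0.31 to 0.808 without the 2 farthest arrays. In the 18 females left, r ran from 0.204 to 0.617 (median 0.371), the rank correlation from 0.267 to 0.707, and 1 of 10 pairs passed after adjustment. That pair was Vwf with F13a1, the ligand and the fibrin crosslinker (r = 0.617, permutation p = 0.0004, adjusted p = 0.004). In females Gp1bb with Gp9 had r = 0.585 (permutation p = 0.0193, adjusted p = 0.0965). It fell to 0.246 without the 2 arrays farthest from the Gp1bb median, and so depends on them.

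**Figure D4:**
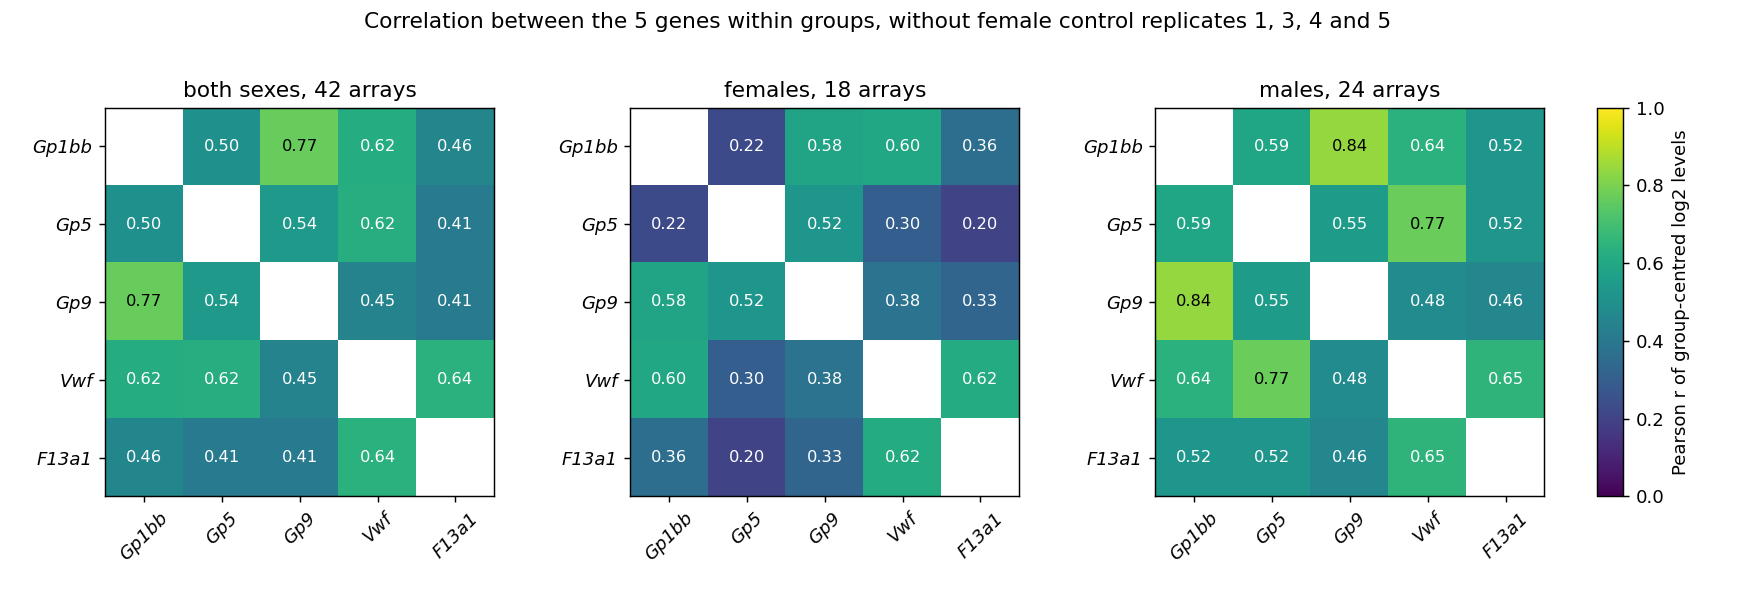
Pearson's r between each pair of the 5 genes, from log2 levels centred on the group mean, over 42 arrays of both sexes, 18 female and 24 male arrays, all without the 4 female control arrays. The colour scale runs from 0 to 1. Gp1bb with Gp9 is the closest pair over both sexes (0.77) and in males (0.84), and Vwf with F13a1 in females (0.62).

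Genes whose levels were most like those of the 5 were found by the same correlation over 42 arrays, as a description. Closest to Gp9 were Ramp3, a receptor accessory protein (r = 0.825), and Myl9, a myosin light chain of platelets (r = 0.823). Closest to Gp1bb were Orai1, the store-operated calcium channel (r = 0.724), and Ly6g6f, an immunoglobulin-like receptor of platelets (r = 0.713). Gp5 was nearest to Ecm1, an extracellular matrix protein (r = 0.735), and P2rx1, the ATP-gated channel of platelets (r = 0.715). Vwf was nearest to Pltp, a phospholipid transfer protein (r = 0.749). F13a1 was nearest to Alox12 (r = 0.758) and Dnah1, a dynein heavy chain (r = 0.737). F5 stood among the nearest 4 of both Vwf (r = 0.725) and F13a1 (r = 0.735), and Ly6g6f among the nearest 4 of all 3 receptor subunits.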

How the data were processed

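Per the file headers, the authors deposited raw intensities and a p-value of detection for every probe on every array. A second deposited table, of log2 values for 46 arrays, matched uncorrected intensities after quantile normalization to within 5e-09. Which scanner software was used is not given in the sources used here. The platform annotation gave 1 symbol to 13793 of the 22523 probes.

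Intensities were background corrected by normexp in limma 3.58.1 (R 4.3.3), with an offset of 16 and control intensities estimated from detection p-values, then quantile normalized and converted to log2. Probes detected at p under 0.05 on 7 or more arrays were tested, 9416 in all. Groups came from the labels. One model of 6 group means (40 residual degrees of freedom) gave 11 contrasts, with two-sided p-values adjusted by Benjamini and Hochberg over all tested probes and called at 0.05. Exposed is the average of the minimal and extreme groups. Because of the offset, dim probes show smaller differences than bright ones. The fit was tested on simulated data.

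The genes, gene lists and the 4 arrays set apart were chosen with earlier results of these data known. Of each reference list, the 2 to 4 tested genes with the smallest p in exposed females were named, and for each of the 5 genes those with the highest correlation. Replicate numbers were checked for pairing. Arrays of the same number in different groups had a median correlation of -0.0164 over 110 pairs (-0.528 to 0.396). Arrays of different number had -0.00175 over 770 pairs (-0.418 to 0.433). Arrays of the same number were thus not more alike as a set, which cannot exclude a link between single arrays. Each array is 1 rat per the labels, where identifiers of male controls carry a C that those of exposed males lack, and the design text, which speaks of female rats, also lists males, so sex was taken from the sample labels. Alternatives were other corrections, scalings, filters, offsets, weights and covariates, each sex by itself, all 47 arrays, a replicate block and omission of arrays.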

Additional observations from a re-analysis of the deposited data

Results flagged for a closer look

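Gp5 in male minimal responder replicate 1 had a log2 level of 5.995, far below the 7 other rats of its group, of which the nearest was at 6.745. It was the only such value among 30 combinations of gene and group, where chance gives about 1 in 20. The exposure effect differed between females and males for all 5 genes by the interaction term of limma, with differences on the log2 scale of 1.877 for Gp1bb, 1.845 for Gp5, 1.78 for Gp9, 2.407 for Vwf and 1.869 for F13a1. Without female control replicates 1, 3, 4 and 5 these became 0.23, 0.02, -0.06, 0.62 and 0.38, and 0 of 5 passed. Sex and numbering series cannot be told apart in these differences.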

How the results depend on the processing

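With each sex by itself 1 gene, Vwf, was called in male minimal responders, where 1436 of 8246 probes were called. Without female control replicates 1, 3, 4 and 5 the genes called fell from 5 to 0 in exposed, minimal and extreme females against controls. They also fell from 5 to 0 in the exposure difference between sexes and in control females against males. In male minimal responders they rose from 0 to 1 (Vwf), where 16.6% of probes were called. Signs turned in exposed females for Gp9 (-0.10), in extreme females for Gp1bb (-0.046), Gp9 (-0.40) and F13a1 (-0.32), in the exposure difference for Gp9 (-0.0568), and between controls for Gp5 (0.59), Gp9 (0.39), Vwf (0.0529) and F13a1 (0.52). With the platelet covariate 0 were called in the 3 female comparisons and the exposure difference, 1 between controls, and 2 each in exposed and minimal males. Signs turned for Gp9 (-0.24) and F13a1 (-0.14) in exposed females, Gp1bb (-0.0644) and Gp9 (-0.19) in minimal females, Gp9 (-0.28) and F13a1 (-0.31) in extreme females, Gp9 (-0.00457) in the exposure difference and F13a1 (0.19) between controls. The cause was not tested. F13a1 in extreme females missed the threshold without background correction, with scaling to the 75th percentile, no filter, offset 50, array weights, brightness as a covariate and females by themselves (0.66 to 1.27, limma adjusted p from 0.0606 to 0.0866), and between controls under 5 of these (-0.96 to -0.49, limma adjusted p from 0.0593 to 0.0957). Vwf against the receptor subunits in females reached an unadjusted p under 0.05 without background correction (0.27), with 75th percentile scaling (0.40) and with offset 50 (0.30), and single omissions gave 0.12 to 0.26. F13a1 against them in females became 0.0827 without the 4 arrays. Pairs of genes that passed went from 10 to 1 in 18 females, a set chosen after seeing the data. With the replicate block the counts of 5 and 0 genes called stayed as they were, and no call of the 5 genes changed. Single omissions gave 3 to 5 genes called in extreme females, 4 to 5 between controls and 5 or 0 elsewhere.

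Counts over all probes moved by over 1.5 times as follows. Without the 4 arrays, 599, 489 and 505 in exposed, minimal and extreme females became 1, 0 and 7, 32 in extreme against minimal females 75, 0 in extreme males 22, 13 in extreme against minimal males 25, 1072 in the exposure difference 0, and 3006 between controls 201. With the platelet covariate the same comparisons gave 2, 0, 38, 23, 39, 0, 22 and 1511, of which the move from 32 to 23 was under 1.5 times. With 75th percentile scaling 505 became 247, 32 became 0, 1055 in exposed males 167, 1396 in minimal males 544, 13 became 2, 1072 became 499 and 3 in the class difference between sexes 0. With all 47 arrays 32 became 0, 1055 became 119, 1396 became 317, 13 became 0, 1072 became 543 and 3 became 0. Array weights gave 312 for 505, 96 for 32, 149 for 0 and 12 for 3, no filter gave 11 for 32, 7 for 13 and 1 for 3, and brightness gave 19 for 32, 16 for 0 and 33 for 13. Offset 50 gave 53 for 32, each sex by itself 5 for 32 and 2 for 13, and the replicate block 0 for 13. Single omissions gave 7 to 71 for 32, 0 to 303 for 0, 0 to 92 for 13 and 1 to 8 for 3.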
